A study of Mus musculus with 6 samples.

Results

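The 44 genes described here make and assemble ribosomes: subunits of RNA polymerase I, proteins of the snoRNPs that modify ribosomal RNA, and factors that build the small and the large ribosomal subunit. They were taken by symbol from a count table of 23481 genes, in which all 44 were found, and sorted into 8 steps of the pathway by their known roles. The cells were 4T1, a mouse mammary carcinoma line (the name of the deposited count table gives them as 4T1_T), grown in DMEM supplemented with non-essential amino acids and infected with a short hairpin RNA. In the shAsns-1 and shAsns-2 groups the hairpin targeted Asns, which encodes asparagine synthetase, and in the shRenilla group it targeted a luciferase of the sea pansy that mouse cells lack. The labels name 2 libraries, A and B, for each hairpin, but shAsns-1 B had 0 reads at every gene. That left 1 library of shAsns-1, 2 of shAsns-2 and 2 of shRenilla. Whether A and B came from separate cultures, and whether infected cells were cloned, is not stated in the labels, so the p-values below measure only the spread between these libraries. With bulk RNA, fewer cells of a type and less RNA per cell cannot be told apart.

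Ribosome production starts in the nucleolus, where RNA polymerase I copies the ribosomal DNA repeats into a long precursor. Small nucleolar RNAs guide the chemical modification of this RNA, with box C/D particles adding methyl groups to riboses and box H/ACA particles converting uridine to pseudouridine. The small subunit processome folds and cuts the precursor of the small subunit, and a second set of factors builds the large subunit before both leave the nucleus. Proliferating tumour cells keep this pathway active, and MYC is a known activator of many of its genes.

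Asns itself went against the label in one group. It stood at 109 CPM in the library labelled shAsns-1, 46.5 (A) and 44.7 (B) CPM in shAsns-2, and 58.7 (A) and 56.2 (B) CPM in shRenilla. Against shRenilla, Asns had a log2 fold change 0.92, SE 0.101, adjusted p = 6.27e-05 in the library labelled shAsns-1, with a log2 fold change -0.34, SE 0.0882, adjusted p = 0.216 in shAsns-2 (edgeR's quasi-likelihood test with Benjamini-Hochberg adjustment over 12457 genes). The single library of that hairpin is therefore called the library labelled shAsns-1 throughout, and no direction below is a direction with Asns knockdown for it. Gene reads numbered 10244753 there, 10472179 (A) and 13888327 (B) in shAsns-2, and 15955168 (A) and 14287190 (B) in shRenilla. The 7 epithelial markers were over 1 CPM (reads per 1000000 gene reads, scaled between libraries) in all 5 libraries, with a summed level of 869 CPM in the library labelled shAsns-1, 1095 to 1112 CPM in shAsns-2 and 1012 to 1040 CPM in shRenilla. Leukocyte, endothelial and fibroblast lists had 1 of 7, 0 of 5 and 1 of 6 members over 1 CPM in every library, and Lyz2 and Lum were at 0 in all 5. The exceptions were Cd68 and Pdgfra. Olfactory receptor genes summed to 41.5 CPM in the library labelled shAsns-1, against 7.99 to 11.9 CPM in the other 4 libraries. The part of these differences between libraries in the results below was not tested.

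All 44 genes passed the filter on low counts, and none was close to the limit of detection. The lowest member in every library was Rrp9, a protein of the U3 particle, with 159 reads in the library labelled shAsns-1, 185 (A) and 235 (B) in shAsns-2, and 309 (A) and 324 (B) in shRenilla, where 3 reads are taken as the floor. Per kilobase of exon, the mean level in shRenilla ran from 7.52 RPKM (CPM per kilobase of exon) for Polr1e to 1166 RPKM for Npm1, with a median of 37.4 RPKM over the 44 genes. Npm1, which encodes the nucleolar chaperone nucleophosmin, ranged from 1051 to 1217 RPKM over the 5 libraries, and Ncl, which encodes nucleolin, from 545 to 699.7 RPKM. Together these 2 genes took 54.2% of the reads of the 44 genes in the library labelled shAsns-1, 54.6 (A) and 55.9% (B) in shAsns-2, and 55.0 (A) and 53.5% (B) in shRenilla. Next in level in shRenilla came Nop56 (328 RPKM), Dkc1 (208 RPKM) and Gnl3 (114 RPKM). The lowest besides Polr1e were Rrp12 (8.57 RPKM), Wdr12 (8.68 RPKM) and Polr1b (10.1 RPKM). By step, the median level in shRenilla was lowest for the RNA polymerase I subunits (17.0 RPKM) and higher for factors of the pre-40S particle (26.5 RPKM), the small subunit processome (30.8 RPKM), large subunit assembly (34.8 RPKM), box C/D proteins (58.5 RPKM), box H/ACA proteins (64.9 RPKM) and the rDNA transcription and scaffold proteins (68.8 RPKM).

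**Figure D1:**
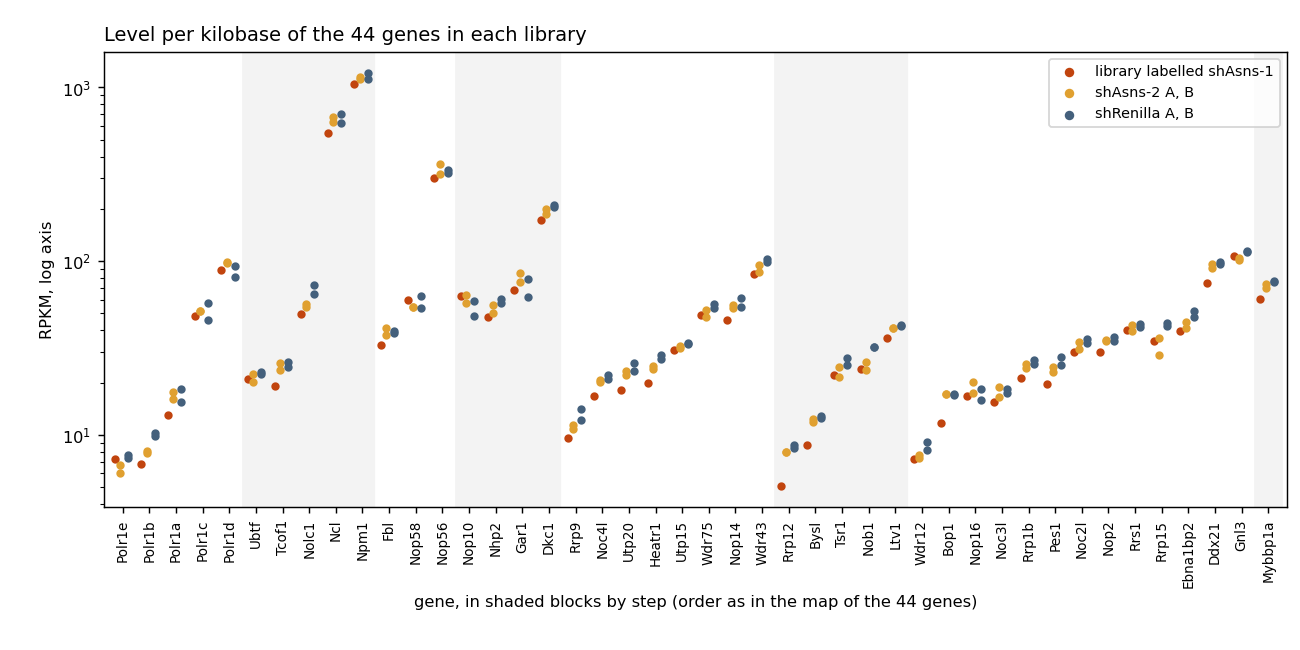
Level of each of the 44 genes in RPKM (log axis) in the library labelled shAsns-1 (red), shAsns-2 A and B (yellow) and shRenilla A and B (blue), with genes grouped by step of assembly and ordered by their shRenilla level within a step. Levels span from 7.52 RPKM for Polr1e to 1166 RPKM for Npm1 in shRenilla, while the 5 libraries of a gene lie close together.

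In the library labelled shAsns-1, 10 of the 44 genes fell against shRenilla, none rose, and 34 did not pass the test at an adjusted p under 0.05. Over all genes tested, 2.06% fell and 2.31% rose in that comparison. The 10 were Rrp12, Polr1b, Bop1, Bysl, Heatr1, Nolc1, Utp20, Pes1, Tcof1 and Ddx21, which belong to 5 of the 8 steps. The median log2 fold change of the 44 genes was -0.27, with 41 values below 0 and 3 above, beside a median of -0.0090 over all genes tested. At an unadjusted p under 0.05, 28 members were lower and 0 higher, beside 1189 (9.54%) lower and 1250 higher of the 12457 genes tested. In 38 members the library labelled shAsns-1 lay below both shRenilla libraries, which was so for 38.5% of all genes tested. In Nop10 the library labelled shAsns-1 lay above both, as in 4653 of the 12457 genes tested. Because that group is 1 library, its spread was taken from the other groups, and the count changed with the libraries in the fit: 5 of the 10 (Rrp12, Polr1b, Bop1, Bysl and Heatr1) were called with only these groups in the fit, and also without shAsns-2 A or without shAsns-2 B. DESeq2 called 6 members, 5 of them among the 10.

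In shAsns-2, where Asns was lower than in shRenilla without passing the test, 0 of the 44 genes were called in either direction by edgeR, and 0 by DESeq2 or limma-voom. Over all genes tested, edgeR called 0.0642% higher and 0% lower. The members' values were small and mostly below 0: 36 below and 8 above, with a median log2 fold change of -0.088, beside -0.0014 over all genes tested. At an unadjusted p under 0.05, 9 members were lower and 0 higher, beside 504 (4.05%) lower and 696 higher of the 12457 genes tested. Both shAsns-2 libraries lay below both shRenilla libraries in 24 members, beside 20.7% of all genes tested. They lay above both in Polr1d, as in 2560 of the 12457 genes tested. The groups overlapped in 19 members, beside 7324 of all genes tested. The 95% intervals of the members' fold changes, not adjusted for the number of genes, lay below 1 in those 9 members and included 1 in the others, with the lowest bound at 0.650-fold in Rrp15 and the highest at 1.34-fold in Gar1.

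Both comparisons share the shRenilla libraries, so their values are given side by side and no agreement is read from them. In 24 members the library labelled shAsns-1 and both shAsns-2 libraries lay below both shRenilla libraries, beside 13.2% of all genes tested. The lowest of the 5 libraries was the library labelled shAsns-1 in 30 members, a shAsns-2 library in 8 and a shRenilla library in 6, and the highest was a shRenilla library in 37. These orders were not counted over all genes tested, so they are given as descriptions only. Relative to the shRenilla mean, the median over the 44 genes was -0.27 (log2) in the library labelled shAsns-1, -0.095 (A) and -0.084 (B) in shAsns-2, with -0.0070 (A) and 0.0070 (B) in shRenilla, which mirror each other because each is set against their own mean. Replicates of a group differed in a member by a median of 0.093 (log2, without sign) between shAsns-2 A and B and 0.0791 between shRenilla A and B, and by at most 0.335 and 0.346.

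**Figure D2:**
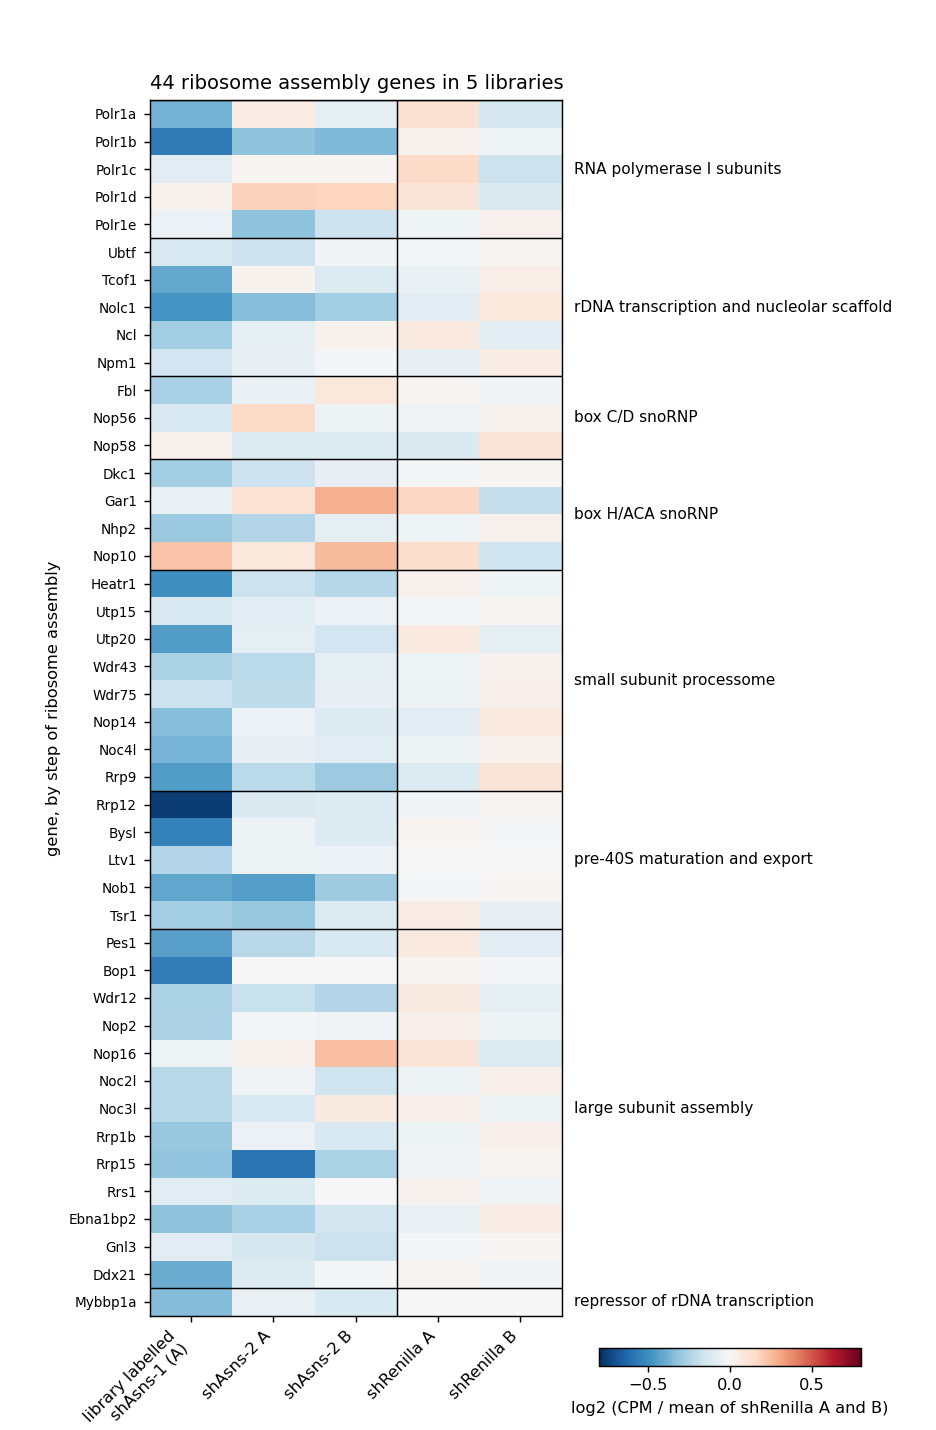
Log2 ratio of each gene's CPM to the mean of the shRenilla libraries, with 1 row per gene in blocks by step and 1 column per library (blue below, red above the shRenilla mean). The column of the library labelled shAsns-1 is the bluest, with Rrp12 at -0.76, and the shAsns-2 columns are paler, with Rrp15 in shAsns-2 A as their darkest cell.

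**Figure D3:**
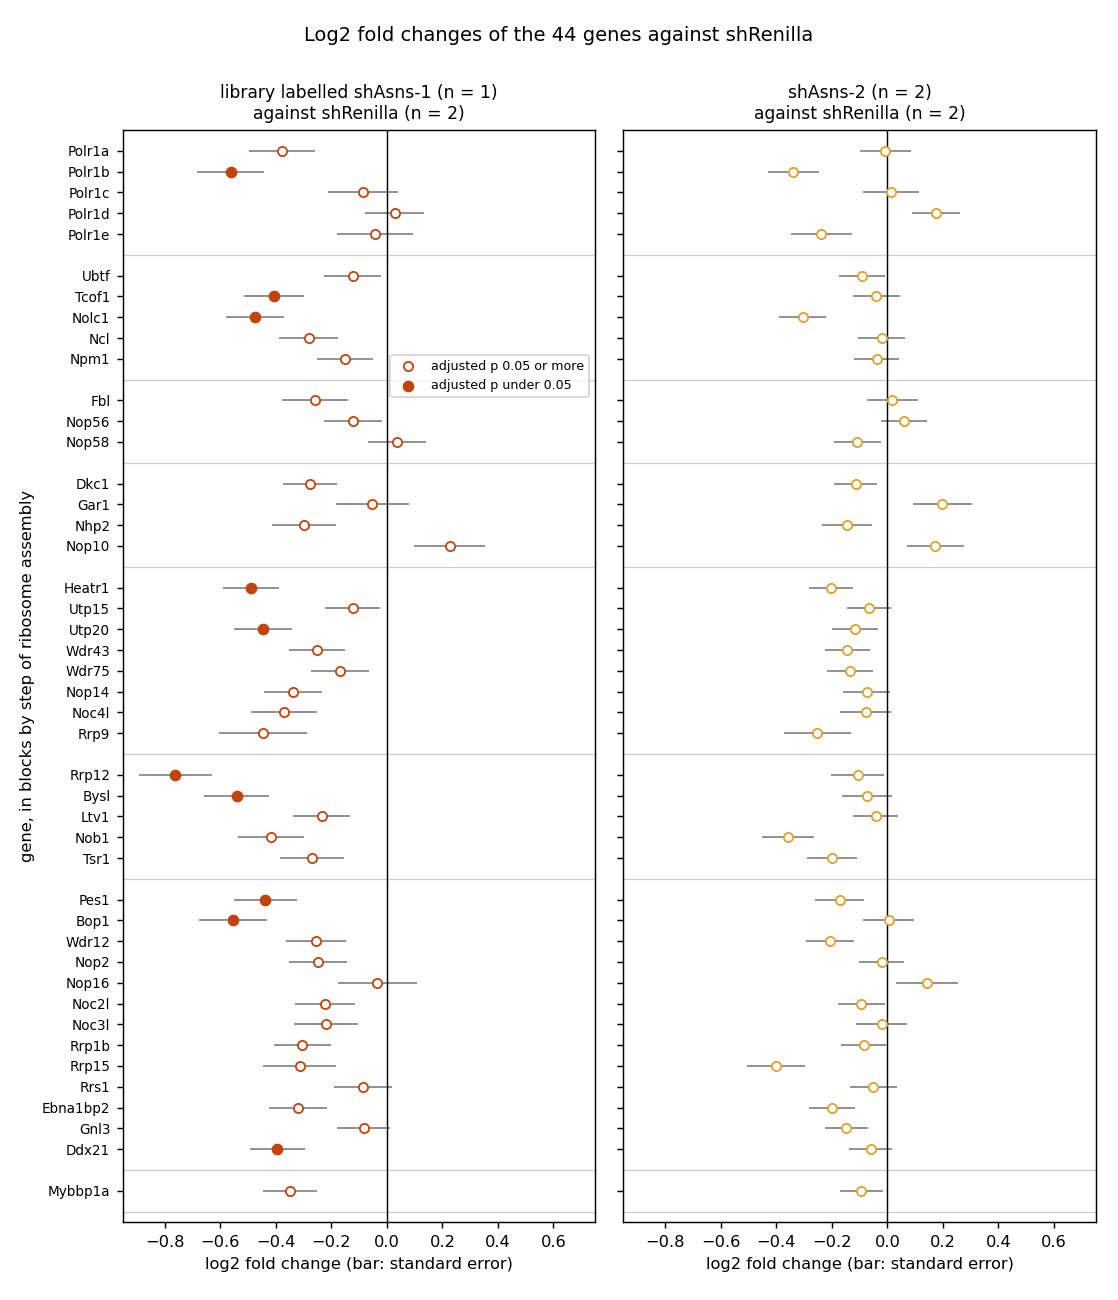
Log2 fold change with its standard error for the 44 genes in the library labelled shAsns-1 (left) and in shAsns-2 (right), both against shRenilla, in blocks by step; filled points passed an adjusted p under 0.05. The 10 filled points are all on the left and all below 0.

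**Figure D4:**
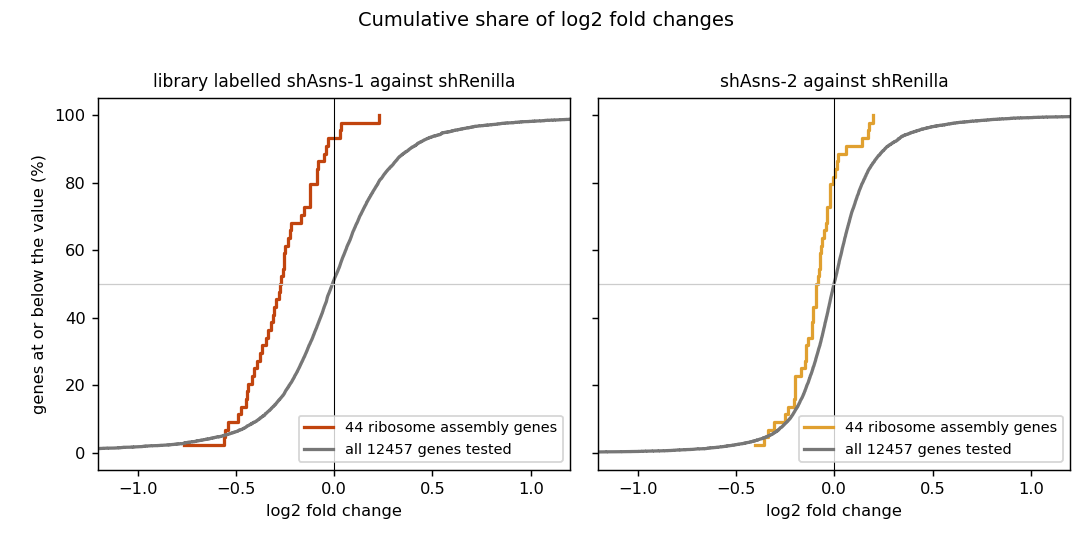
Cumulative share of log2 fold changes against shRenilla for the 44 genes (coloured) and for all 12457 genes tested (grey), in the library labelled shAsns-1 (left) and in shAsns-2 (right); the axes leave out the most extreme genes. The members' curve crosses 50% at -0.27 on the left and at -0.088 on the right, while the curve of all genes crosses near 0 in both.

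Among the 5 subunits of RNA polymerase I, 1 fell in the library labelled shAsns-1, with 0 in shAsns-2. That gene was Polr1b (ENSMUSG00000027395, chr2:129100995-129126594, plus strand in GRCm38), which encodes the second-largest subunit and, with the largest, forms the catalytic core. It stood at 31.6 CPM in the library labelled shAsns-1, 37.3 (A) and 36.4 (B) CPM in shAsns-2, and 47.6 (A) and 45.5 (B) CPM in shRenilla. Both shAsns-2 libraries were below both shRenilla libraries, and the library labelled shAsns-1 was below them all. The log2 fold change -0.56, SE 0.121, adjusted p = 0.0137 in the library labelled shAsns-1 corresponds to 0.678-fold, 95% interval 0.568 to 0.809. In DESeq2 the call was lost (adjusted p = 0.0702). In shAsns-2 the value was -0.34 (SE 0.0928, adjusted p = 0.228), with a mean of 36.9 ± 0.600 CPM, against 46.6 ± 1.49 CPM in shRenilla (SD, n = 2 each). The stretch of 120 bases before the RefSeq start of Polr1b (build GRCm38.p6) is shown because Polr1b is the called polymerase subunit; capitals mark a GGGCGG box, the letters bound by Sp1-type factors.
Polr1b (chr2:129100876-129100995, plus strand): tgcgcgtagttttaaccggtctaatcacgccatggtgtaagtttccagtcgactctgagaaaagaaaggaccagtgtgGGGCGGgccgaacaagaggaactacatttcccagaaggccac

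The other polymerase subunits had values nearer to 0. Polr1a, the largest subunit, had a log2 fold change of -0.38 in the library labelled shAsns-1 (adjusted p = 0.0790) and -0.0070 in shAsns-2. Polr1e, a subunit particular to RNA polymerase I, had -0.044 and -0.24 in the same order. Polr1c and Polr1d, which RNA polymerase III also uses, had -0.087 and 0.028 in the library labelled shAsns-1, and 0.013 and 0.18 in shAsns-2. None of these values passed the test in the main fit, and the sign changed under at least 1 setting for Polr1c, Polr1d and Polr1e in the library labelled shAsns-1, and for Polr1a and Polr1c in shAsns-2. Polr1a was called lower in the library labelled shAsns-1 with no filter on low counts, with the replicate letter as a block and without shRenilla B. Polr1d was the member with both shAsns-2 libraries (220.3 and 218 CPM) above both shRenilla libraries (209 and 179 CPM). The median of the 5 subunits was -0.087 in the library labelled shAsns-1, with -0.0070 in shAsns-2.

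Of the 5 genes for rDNA transcription and the nucleolar scaffold, Nolc1 and Tcof1 fell in the library labelled shAsns-1, and 0 were called in shAsns-2. Nolc1 (chr19:46075863-46085530, plus strand) encodes a nucleolar phosphoprotein that escorts snoRNPs and contacts RNA polymerase I. Its level was 179.8 CPM in the library labelled shAsns-1, 198 (A) and 207 (B) CPM in shAsns-2, and 236 (A) and 265 (B) CPM in shRenilla. The groups did not overlap, with the library labelled shAsns-1 lowest and shAsns-2 next, and the values were a log2 fold change -0.48, SE 0.105, adjusted p = 0.0160 in the library labelled shAsns-1, and a log2 fold change -0.31, SE 0.0832, adjusted p = 0.227 in shAsns-2. The call in the library labelled shAsns-1 was lost without replicate A of shAsns-2 (adjusted p = 0.0593) and without its replicate B (adjusted p = 0.0584). Its 120 bases before the start, shown for the same reason as those of Polr1b, hold GGGCGG once in each direction and a CCGGAAG, the core letters of ETS-type sites, in capitals.
Nolc1 (chr19:46075727-46075846, plus strand): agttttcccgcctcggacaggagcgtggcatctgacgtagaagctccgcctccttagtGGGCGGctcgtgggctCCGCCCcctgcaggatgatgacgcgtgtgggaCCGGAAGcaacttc

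Tcof1 encodes treacle, which recruits RNA polymerase I and its activator to the rDNA repeats. It was at 88.7 CPM in the library labelled shAsns-1, 120.2 (A) and 109 (B) CPM in shAsns-2, and 113 (A) and 122 (B) CPM in shRenilla. Here the library labelled shAsns-1 stood alone below the rest, while shAsns-2 and shRenilla overlapped (log2 fold change -0.41, SE 0.108, adjusted p = 0.0425 in the library labelled shAsns-1, with -0.039 in shAsns-2). The call was close to the threshold and was lost in DESeq2 (adjusted p = 0.0865), with the GC trend removed (adjusted p = 0.128), with total gene reads alone (adjusted p = 0.0528), and without shAsns-2 A, shAsns-2 B or shRenilla B (adjusted p = 0.103, 0.103 and 0.0590). Ubtf, the factor that keeps the repeats open for transcription, had -0.12 in the library labelled shAsns-1, with -0.092 in shAsns-2. Ncl and Npm1, the abundant scaffold proteins, had -0.28 and -0.15 in the library labelled shAsns-1, and -0.021 and -0.038 in shAsns-2, none of which passed in the main fit. The medians of the step were -0.28 in the library labelled shAsns-1, with -0.039 in shAsns-2.

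The snoRNP proteins had 0 of 7 genes called against shRenilla by edgeR, DESeq2 or limma-voom, and 3 were lower at an unadjusted p under 0.05 in the library labelled shAsns-1, with 0 in shAsns-2. Of all genes tested, 9.54 and 4.05% were lower at that limit in the same order. For box C/D particles the medians were -0.12 in the library labelled shAsns-1, with 0.018 in shAsns-2, and for box H/ACA particles -0.16 and 0.029. Fbl, the methyltransferase fibrillarin, stood at 39.3 CPM in the library labelled shAsns-1, 45.2 (A) and 49.7 (B) CPM in shAsns-2, and 47.7 (A) and 46.2 (B) CPM in shRenilla. Its partner Nop56 was at 576 CPM in the library labelled shAsns-1, 696 (A) and 609.7 (B) CPM in shAsns-2, and 614 (A) and 639 (B) CPM in shRenilla. The third core protein, Nop58, was at 572 CPM in the library labelled shAsns-1, 518 (A) and 518 (B) CPM in shAsns-2, and 516 (A) and 601 (B) CPM in shRenilla. In Fbl and Nop56 the library labelled shAsns-1 was lowest, in Nop58 it lay inside the range of shRenilla, and shAsns-2 overlapped shRenilla in all 3.

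Dkc1, the pseudouridine synthase dyskerin, was at 482 CPM in the library labelled shAsns-1, 521 (A) and 558 (B) CPM in shAsns-2, and 578 (A) and 589.9 (B) CPM in shRenilla. Nhp2, which binds the guide RNA, was at 50.03 CPM in the library labelled shAsns-1, 52.2 (A) and 58.6 (B) CPM in shAsns-2, and 60.1 (A) and 62.9 (B) CPM in shRenilla. In both genes the library labelled shAsns-1 and both shAsns-2 libraries were below both shRenilla libraries, with log2 fold changes of -0.28 and -0.30 in the library labelled shAsns-1 and -0.11 and -0.15 in shAsns-2. Gar1 was at 86.7 CPM in the library labelled shAsns-1, 96.7 (A) and 109 (B) CPM in shAsns-2, and 101 (A) and 79.1 (B) CPM in shRenilla. Nop10, the smallest of the core proteins, was at 69.9 CPM in the library labelled shAsns-1, 63.3 (A) and 71.1 (B) CPM in shAsns-2, and 65.8 (A) and 53.5 (B) CPM in shRenilla. These 2 genes had the widest gaps between shRenilla A and B among the 7 snoRNP proteins (log2 B over A of -0.346 for Gar1 and -0.301 for Nop10), and their values of -0.053 and 0.23 in the library labelled shAsns-1 and 0.20 and 0.17 in shAsns-2 did not pass the test. Nop10 had the highest log2 fold change of the 44 genes in the library labelled shAsns-1 (adjusted p = 0.348).

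In the small subunit processome, all 8 genes lay below both shRenilla libraries in the library labelled shAsns-1, and 2 of them, Heatr1 and Utp20, fell. Over all genes tested, 38.5% lay below both shRenilla libraries in the library labelled shAsns-1. The median log2 fold change of the processome genes was -0.35 in the library labelled shAsns-1, with -0.12 in shAsns-2, where 0 were called. Heatr1 (chr13:12395027-12440289, plus strand) encodes a large scaffold protein that also promotes rDNA transcription. It was at 135 CPM in the library labelled shAsns-1, 168 (A) and 162 (B) CPM in shAsns-2, and 195 (A) and 186 (B) CPM in shRenilla. The 3 groups did not overlap, with shAsns-2 between the others (log2 fold change -0.49, SE 0.100, adjusted p = 0.00998 in the library labelled shAsns-1, which is 0.712-fold, 95% interval 0.615 to 0.825; -0.20 in shAsns-2, adjusted p = 0.430). The call in the library labelled shAsns-1 was kept under every alternative run. Utp20, a large repeat protein of the same complex, was at 159.5 CPM in the library labelled shAsns-1, 205 (A) and 195 (B) CPM in shAsns-2, and 229 (A) and 205 (B) CPM in shRenilla. There the library labelled shAsns-1 stood alone and shAsns-2 overlapped shRenilla (log2 fold change -0.44, SE 0.105, adjusted p = 0.0240 in the library labelled shAsns-1, with -0.12 in shAsns-2). That call was lost on leaving out shAsns-2 A (adjusted p = 0.0765), shAsns-2 B (adjusted p = 0.0755) or shRenilla A (adjusted p = 0.0636).

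The 6 other processome genes did not pass the test in the main fit. Nop14 was called lower in the library labelled shAsns-1 with no filter on low counts and without shRenilla A. In the library labelled shAsns-1 they ran from -0.12 for Utp15 to -0.45 for Rrp9, with Noc4l at -0.37, Nop14 at -0.34, Wdr43 at -0.25 and Wdr75 at -0.17. In shAsns-2 the same genes ran from -0.067 for Utp15 to -0.25 for Rrp9. Utp15, Wdr43 and Wdr75 belong to the subcomplex that first binds the growing precursor, together with Heatr1. In shAsns-2, 6 of the 8 processome genes had both libraries below both shRenilla libraries, the exceptions being Utp20 and Nop14. This was so for 20.7% of all genes tested.

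The pre-40S step held the largest fall among the 44 genes. Of its 5 genes, Rrp12 and Bysl fell in the library labelled shAsns-1, and for all 5 the library labelled shAsns-1 and each shAsns-2 library lay below both shRenilla libraries. All 3 shAsns libraries lay below both shRenilla libraries in 13.2% of all genes tested. The medians of the step were -0.42 in the library labelled shAsns-1, with -0.11 in shAsns-2. Rrp12 (ENSMUSG00000035049, chr19:41862851-41896173, minus strand), which encodes an export factor of pre-ribosomes, was at 21.9 CPM in the library labelled shAsns-1, 34.4 (A) and 34.7 (B) CPM in shAsns-2, and 36.6 (A) and 37.8 (B) CPM in shRenilla. Only the library labelled shAsns-1 stood far from the rest, by 0.590-fold, 95% interval 0.487 to 0.714 (log2 fold change -0.76, SE 0.130, adjusted p = 0.00314), while the value in shAsns-2 was -0.11 (adjusted p = 0.757; 0.929-fold, 95% interval 0.807 to 1.07). The call in the library labelled shAsns-1 was kept under every alternative run.

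Bysl (chr17:47599331-47611492, minus strand) encodes bystin, which stays with the small subunit precursor until its late cytoplasmic steps. It was at 33.6 CPM in the library labelled shAsns-1, 47.5 (A) and 45.5 (B) CPM in shAsns-2, and 49.4 (A) and 48.3 (B) CPM in shRenilla. Again the library labelled shAsns-1 stood apart, with shAsns-2 just below shRenilla (log2 fold change -0.54, SE 0.118, adjusted p = 0.0150 in the library labelled shAsns-1, with -0.074 in shAsns-2), and the call was lost in DESeq2 (adjusted p = 0.0697). Exons of Bysl overlap those of Ccnd3 on the opposite strand, and the strand setting of the counting is not given in the sources used here. The 120 bases before its start, shown beside those of Polr1b and Nolc1, held none of the 5 motifs searched in full. The searched window of 300 bases, which reaches further to both sides, did hold GGGCGG on one of its strands.
Bysl (chr17:47611493-47611612, minus strand): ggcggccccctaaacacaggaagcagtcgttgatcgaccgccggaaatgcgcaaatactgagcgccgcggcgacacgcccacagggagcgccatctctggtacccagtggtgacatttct

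Nob1, the nuclease that cuts the end of the small subunit RNA, had a different order of libraries from Rrp12 and Bysl. It was at 39.8 CPM in the library labelled shAsns-1, 39.1 (A) and 43.6 (B) CPM in shAsns-2, and 52.9 (A) and 53.5 (B) CPM in shRenilla, and is described in full after its values were seen. The library labelled shAsns-1 and both shAsns-2 libraries lay below both shRenilla libraries, with -0.42 in the library labelled shAsns-1 (adjusted p = 0.0562) and -0.36 in shAsns-2 (adjusted p = 0.212). Nob1 was called lower in the library labelled shAsns-1 with no filter on low counts, and in shAsns-2 with the replicate letter as a block. Tsr1, a GTPase-like factor, had -0.27 and -0.20, and Ltv1, an export adaptor, -0.23 and -0.042, in the same order.

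Of the 13 factors of large subunit assembly, Bop1, Pes1 and Ddx21 fell in the library labelled shAsns-1 and 0 were called in shAsns-2. The medians were -0.26 and -0.084. Pes1, Bop1 and Wdr12 form a complex of large subunit assembly and are given one by one. Bop1 was at 29.1 CPM in the library labelled shAsns-1, 42.8 (A) and 42.8 (B) CPM in shAsns-2, and 42.9 (A) and 42.4 (B) CPM in shRenilla. The 4 libraries of shAsns-2 and shRenilla lay within 42.4 to 42.9 CPM, and the library labelled shAsns-1 lay below them (log2 fold change -0.55, SE 0.121, adjusted p = 0.0155; 0.0046 in shAsns-2, 1.00-fold, 95% interval 0.878 to 1.15). That call was lost in DESeq2 (adjusted p = 0.0768) and with the GC trend removed (adjusted p = 0.0509), and exons of Bop1 overlap those of Mroh1 on the opposite strand. Pes1 was at 57.6 CPM in the library labelled shAsns-1, 66.9 (A) and 71.6 (B) CPM in shAsns-2, and 82.3 (A) and 73.7 (B) CPM in shRenilla. The library labelled shAsns-1 and both shAsns-2 libraries lay below both shRenilla libraries (log2 fold change -0.44, SE 0.114, adjusted p = 0.0378 in the library labelled shAsns-1, with -0.17 in shAsns-2). This call was lost in DESeq2 (adjusted p = 0.117), with the GC trend removed (adjusted p = 0.0812), and without shAsns-2 A, shAsns-2 B or shRenilla A (adjusted p = 0.0890, 0.0873 and 0.107). Wdr12 had -0.26 in the library labelled shAsns-1, with -0.21 in shAsns-2 and was not called.

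Ddx21, an RNA helicase of the nucleolus, was at 352 CPM in the library labelled shAsns-1, 429.6 (A) and 457 (B) CPM in shAsns-2, and 469 (A) and 456 (B) CPM in shRenilla. The library labelled shAsns-1 was again alone below the rest (log2 fold change -0.39, SE 0.0977, adjusted p = 0.0299; -0.061 in shAsns-2), and the call was lost without shAsns-2 A, shAsns-2 B or shRenilla A (adjusted p = 0.118, 0.117 and 0.0569). Rrp15 was the lowest of the 44 genes in shAsns-2 and is given in full for that reason. It was at 46.0 CPM in the library labelled shAsns-1, 38.1 (A) and 48.0 (B) CPM in shAsns-2, and 56.3 (A) and 58.1 (B) CPM in shRenilla. The 2 shAsns-2 libraries differed from each other more in Rrp15 than in any other member (log2 B over A of 0.335), and both lay below shRenilla (log2 fold change -0.40, SE 0.104, adjusted p = 0.212; -0.31 in the library labelled shAsns-1). The remaining large subunit factors were not called. In the library labelled shAsns-1 they ran from -0.32 for Ebna1bp2, -0.31 for Rrp1b and -0.25 for the methyltransferase Nop2 to -0.034 for Nop16, with Noc2l at -0.22, Noc3l at -0.22, Rrs1 at -0.086 and the GTPase Gnl3 at -0.083. In shAsns-2 these 8 genes ran from -0.20 for Ebna1bp2 to 0.14 for Nop16.

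Mybbp1a, which encodes a repressor of rDNA transcription, was at 263 CPM in the library labelled shAsns-1, 320.2 (A) and 306 (B) CPM in shAsns-2, and 333 (A) and 335 (B) CPM in shRenilla. Both shAsns-2 libraries lay below both shRenilla libraries, and the library labelled shAsns-1 was the lowest. The log2 fold change -0.35, SE 0.0966, adjusted p = 0.0512 in the library labelled shAsns-1 missed the threshold narrowly, and the value in shAsns-2 was -0.093. In DESeq2 (adjusted p = 0.0468) and in limma-voom (adjusted p = 0.0492) Mybbp1a was called lower in the library labelled shAsns-1. The same held with no filter on low counts, with the replicate letter as a block and without shRenilla B.

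Between the hairpins, 2 of the 44 genes were higher in shAsns-2 than in the library labelled shAsns-1, Rrp12 and Bop1, and 0 were lower, beside 1.33% of all genes tested higher and 0.811% lower. Rrp12 differed by a log2 fold change 0.65, SE 0.133, adjusted p = 0.0148 and Bop1 by a log2 fold change 0.56, SE 0.123, adjusted p = 0.0245. Bysl was next (log2 fold change 0.47, SE 0.120, adjusted p = 0.0523). The median of the 44 genes was 0.18, with 39 values above 0 and 5 below, beside 0.0023 over all genes tested. Both calls were lost in DESeq2 (adjusted p = 0.0752 for Rrp12 and 0.121 for Bop1), with the GC trend removed (0.0587 and 0.112), without shAsns-2 A (0.104 and 0.169) and without shAsns-2 B (0.0829 and 0.123). With only these groups in the fit 8 members were called, and without shRenilla B 7. With 1 library on one side, hairpin and library cannot be told apart.

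The rest of the pathway was read from lists of its other genes. Beside the edgeR counts below, 2.06% of all genes tested fell and 2.31% rose in the library labelled shAsns-1. In the library labelled shAsns-1, 6 of 42 other processome genes fell and 0 rose (median -0.19), as did 9 of 53 other large subunit factors (median -0.21) and 2 of 14 other pre-40S factors (median -0.17). Of 26 nucleases that process the precursor, 1 fell (median -0.050), of 8 RNA polymerase II subunits 1 fell (median -0.086), and of 8 genes of nucleolar surveillance 1 fell (median -0.028). Of 15 other subunits and initiation factors of RNA polymerase I (median -0.11), 22 RNA polymerase III genes (median -0.13) and 11 MYC network genes (median -0.13), 0 were called by edgeR, DESeq2 or limma-voom, with 0, 2 and 1 higher and 2, 4 and 3 lower at an unadjusted p under 0.05. At that limit, 1250 of the 12457 genes tested were higher and 1189 (9.54%) lower in the library labelled shAsns-1. DESeq2 called 3 of the other processome genes, 3 of the other large subunit factors, 1 nuclease, 1 RNA polymerase II subunit and 0 of the other pre-40S factors and of the surveillance genes, all lower. In shAsns-2, 0 genes of any of these 9 lists were called by any of the 3 tools, at an unadjusted p under 0.05 each list had 0 to 7 genes lower and 0 to 1 higher, and the medians lay between -0.13 and 0.0083. Of the 12457 genes tested there, 504 (4.05%) were lower and 696 higher at the same limit. Called by edgeR there were 0% lower and 0.0642% higher.

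The called processome genes with the smallest adjusted p were Pdcd11, Nol6, Dhx37 and Dhx33. Pdcd11, a large RNA-binding protein of the processome, was at 94.5 CPM in the library labelled shAsns-1, 143 (A) and 139 (B) CPM in shAsns-2, and 149 (A) and 144 (B) CPM in shRenilla (log2 fold change -0.63, SE 0.103, adjusted p = 0.00194 in the library labelled shAsns-1). Nol6 was at 59.2 CPM in the library labelled shAsns-1, 84.2 (A) and 82.1 (B) CPM in shAsns-2, and 86.5 (A) and 86.4 (B) CPM in shRenilla (log2 fold change -0.55, SE 0.106, adjusted p = 0.00733), and the helicase Dhx37, which frees the U3 RNA, at 13.9 CPM in the library labelled shAsns-1, 20.7 (A) and 22.8 (B) CPM in shAsns-2, and 23.7 (A) and 23.4 (B) CPM in shRenilla (log2 fold change -0.76, SE 0.153, adjusted p = 0.00921). As in Rrp12 and Bysl, the library labelled shAsns-1 stood below 4 libraries that lay close together. Dhx33, another helicase, had a log2 fold change -0.47, SE 0.105, adjusted p = 0.0183, and its call was lost with only the groups compared and on leaving out shAsns-2 A (adjusted p = 0.0592) or B (adjusted p = 0.0585). Dhx37 lost its call in DESeq2 (adjusted p = 0.0653).

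Among the large subunit factors, Mdn1, the giant ATPase that strips factors from the precursor, was at 209 CPM in the library labelled shAsns-1, 384 (A) and 333 (B) CPM in shAsns-2, and 402 (A) and 298 (B) CPM in shRenilla (log2 fold change -0.74, SE 0.144, adjusted p = 0.00737). The shRenilla libraries differed widely in Mdn1, and DESeq2 did not call it (adjusted p = 0.149). Ccdc86 (log2 fold change -0.58, SE 0.123, adjusted p = 0.0125), Urb2 (log2 fold change -0.47, SE 0.0987, adjusted p = 0.0125) and the helicase Ddx27 (log2 fold change -0.50, SE 0.108, adjusted p = 0.0143) also fell. Ccdc86 lost its call in DESeq2 (adjusted p = 0.05004). Urb2 lost its call with only the groups compared and without shAsns-2 A (adjusted p = 0.0560) or B (adjusted p = 0.0550). The 2 pre-40S factors were Wbscr22, a methyltransferase (log2 fold change -0.51, SE 0.124, adjusted p = 0.0284), and Tsr2 (log2 fold change -0.58, SE 0.157, adjusted p = 0.0468), and both calls were lost in DESeq2, with the GC trend removed, with only the groups compared and without any one of shAsns-2 A, shAsns-2 B or shRenilla A. Tsr2 kept its call with RLE factors and with no filter, and lost it under every other alternative run. The remaining calls were Pop1, a protein of RNase MRP (log2 fold change -0.46, SE 0.104, adjusted p = 0.0185), Polr2a, the largest subunit of RNA polymerase II (log2 fold change -0.42, SE 0.102, adjusted p = 0.0278), and Sirt7, a nucleolar deacetylase (log2 fold change -0.69, SE 0.156, adjusted p = 0.0181). Pop1 and Polr2a lost their calls without shAsns-2 A or B and with only the groups compared, and Polr2a and Sirt7 without shRenilla A and with the GC trend removed. The call of Sirt7 was also lost in DESeq2 (adjusted p = 0.137). Between the hairpins, Mdn1, Pelp1, Pdcd11, Nol6 and Dhx37 were higher in shAsns-2 than in the library labelled shAsns-1.

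Upstream and downstream of these genes, regulators and the row of the ribosomal RNA precursor were read from the same libraries. Myc was at 505 CPM in the library labelled shAsns-1, 656 (A) and 546 (B) CPM in shAsns-2, and 584 (A) and 616 (B) CPM in shRenilla. The library labelled shAsns-1 was the lowest, and neither value passed the test (-0.25 in the library labelled shAsns-1, adjusted p = 0.228; 0.00073 in shAsns-2, adjusted p = 0.998). Rrn3, the initiation factor that links RNA polymerase I to growth signals, was at 119.7 CPM in the library labelled shAsns-1, 126 (A) and 133 (B) CPM in shAsns-2, and 134 (A) and 126 (B) CPM in shRenilla, with log2 fold changes of -0.12 in the library labelled shAsns-1 and of -0.0036 in shAsns-2. Rn45s, the row of the ribosomal RNA precursor, was at 19616 CPM in the library labelled shAsns-1, 29377 (A) and 27929 (B) CPM in shAsns-2, and 20528 (A) and 23949 (B) CPM in shRenilla. Whether its reads came from the precursor or from mature ribosomal RNA was not tested. The shAsns-2 libraries were the highest (log2 fold change 0.37, SE 0.0908, adjusted p = 0.192), and the library labelled shAsns-1 was below both shRenilla libraries (log2 fold change -0.18, SE 0.112, adjusted p = 0.402). Between the hairpins Rn45s was higher in shAsns-2 (log2 fold change 0.55, SE 0.114, adjusted p = 0.0176), a call lost on leaving out shAsns-2 A (adjusted p = 0.402) or B (adjusted p = 0.203). In DESeq2 Rn45s was called higher in shAsns-2 than in shRenilla (adjusted p = 0.0496).

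GC content moved with the fold changes of the library labelled shAsns-1. Over 8895 genes whose average log2 CPM was 3 or more, Spearman's rho between transcript GC content and log2 fold change was -0.326 in the library labelled shAsns-1, with 0.0655 in shAsns-2, both against shRenilla, and 0.399 between the hairpins. Over the 44 members it was -0.273, 0.168 and 0.382 in the same order. These are correlations across genes of the same libraries, given as descriptions. The members' median GC content was 50.8%, against 49.9% over the genes tested. With the GC trend of each library removed, 7 of the 10 calls in the library labelled shAsns-1 remained (Rrp12, Polr1b, Bysl, Heatr1, Nolc1, Utp20 and Ddx21), and Tcof1, Pes1 and Bop1 were lost.

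**Figure D5:**
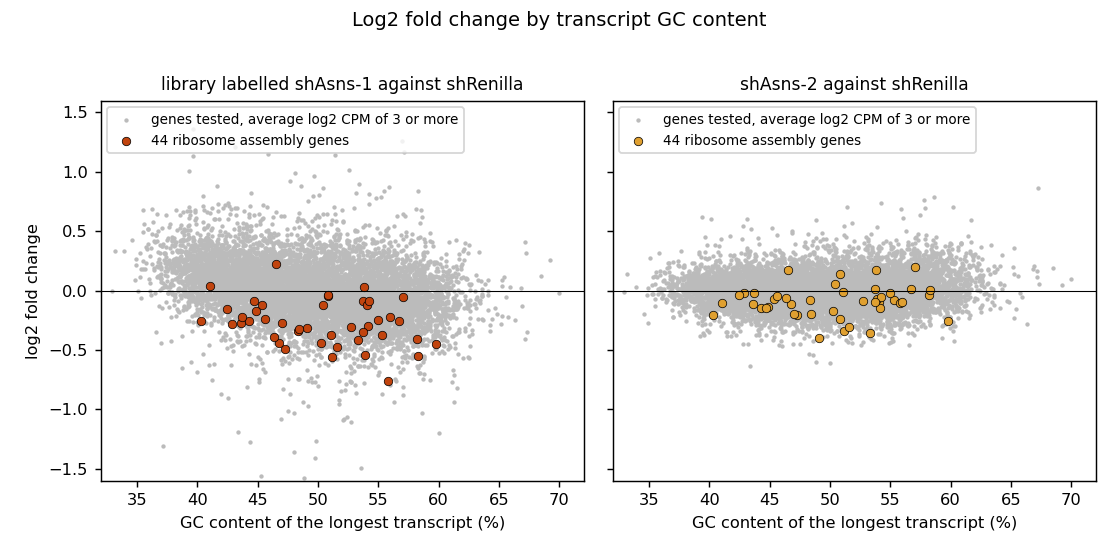
Log2 fold change against shRenilla by GC content of the longest transcript for the library labelled shAsns-1 (left) and shAsns-2 (right), with the 44 genes coloured and other tested genes with an average log2 CPM of 3 or more in grey; the axes leave out the most extreme genes. The grey cloud slopes down on the left (rho -0.326) and is nearly level on the right (rho 0.0655), and the members lie mostly below 0 along the whole GC range on the left.

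Several members also carry small nucleolar RNAs in their introns. By the annotation 7 members (Ncl, Nop56, Nop58, Dkc1, Wdr43, Tsr1 and Gnl3) hold 21 snoRNA genes on their own strand. Of these 7 hosts, 0 fell in the library labelled shAsns-1 in the main fit, against 10 of the 37 other members, and the medians were -0.25 and -0.31. In shAsns-2 they were -0.11 and -0.077. The host Ncl was called lower in the library labelled shAsns-1 with no filter on low counts and without shRenilla B. The difference between hosts and other members was not tested. Exons of 10 members (Nop56, Dkc1, Nhp2, Bysl, Tsr1, Bop1, Noc2l, Rrp1b, Gnl3 and Mybbp1a) overlap those of another gene of the table on the opposite strand, so reads within the shared stretch cannot be assigned to 1 gene without a strand setting. Reads tallied as ambiguous, which count for no gene, made up 0.584 to 0.626% of all reads. How many of them came from these stretches was not tested. Whether reads with several alignments were set aside in the counting is not shown by the values given here. The level of Npm1, which has processed copies in the genome, is therefore uncertain.

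Promoter windows of 300 bases, from 250 before to 50 after the RefSeq start (GRCm38.p6), were available for 38 of the 44 members and were searched on both strands. The E-box CACGTG, the letters bound by MYC with MAX and by other factors of that class, was in 7 of 38 members (18.4%), against 11.8% of 9182 tested genes and 8.1% of all 27025 genes with a window. The ETS-type core CCGGAAG was in 13 members (34.2%), against 20.6% of tested genes and 9.9% of all. GGGCGG was in 29 (76.3%), against 69.5 and 38.2%. CCAAT was in 12 (31.6%), against 43.6 and 41.1%, and TATAAA in 2 (5.3%), against 8.6 and 15.7%. Of the 10 genes that fell in the library labelled shAsns-1, 7 had a window, and 2 of these, Utp20 and Pes1, held the E-box, against 5 of 31 members that did not pass. The 7 E-box windows, 30 bases each in the direction of transcription with the E-box in capitals, are shown because MYC is the best known activator of these genes. A match is a description of the letters and not a bound site.
Utp20 (chr10:88826765-88826794, minus strand): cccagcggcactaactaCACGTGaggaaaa
Pes1 (chr11:3963965-3963994, plus strand): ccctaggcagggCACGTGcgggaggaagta
Nop2 (chr6:125131811-125131840, plus strand): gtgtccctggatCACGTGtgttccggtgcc
Ltv1 (chr10:13193092-13193121, minus strand): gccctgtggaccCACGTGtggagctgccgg
Mybbp1a (chr11:72441347-72441376, plus strand): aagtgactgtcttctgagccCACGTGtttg
Tsr1 (chr11:74898092-74898121, plus strand): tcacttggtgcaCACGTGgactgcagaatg
Wdr43 (chr17:71616220-71616249, plus strand): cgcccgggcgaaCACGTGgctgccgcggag

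The E-box lay before the start in Nop2, 60 bases upstream, and after it in the other 6, at base 3 in Pes1, 18 in Wdr43, 25 in Tsr1, 29 in Ltv1, 38 in Utp20 and 41 in Mybbp1a. Log2 fold changes of the 7 in the library labelled shAsns-1 ran from -0.44 for Utp20 and -0.44 for Pes1 to -0.23 for Ltv1, and in shAsns-2 from -0.20 for Tsr1 to -0.021 for Nop2.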

How the data were processed

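RNA from 4T1 cells (4T1_T in the name of the count table) was extracted with Trizol and made into libraries with the Nugen Ovation kit, per the labels' protocols. The authors deposited raw read counts per gene, aligned with Bowtie2 to mm10 and counted with HTSeq per the submitters' processing notes; their versions, the annotation and how strand was treated are not given there. The 5 tally rows stayed out of library sizes (reads in no feature made up 36.1 to 38.3% and unaligned reads 17.9 to 23.2% of all reads). The design assumed 6 libraries and was fitted to the 5 that held reads, with 2 residual degrees of freedom.

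The fit used edgeR 4.0.16 under R 4.3.3 (filterByExpr by group, TMM factors, 1 quasi-likelihood fit over all groups, common dispersion 0.00388), with Benjamini-Hochberg adjustment over 12457 genes and a call at an adjusted p under 0.05. Alternatives were RLE factors, total gene reads alone, DESeq2 1.42.0, limma-voom (limma 3.58.1), no filter, only the groups compared, the replicate letter as a block, removal of each library's GC trend, and each library left out. CPM values are reads per 1000000 gene reads after TMM scaling, and RPKM values are these per kilobase of exon union over protein-coding transcripts. Exon lengths, GC content and positions came from the GENCODE M21 annotation (GRCm38), which matched all 44 members, and promoters from RefSeq (GRCm38.p6). Intervals are 95% and the floor of 3 reads (0.188 to 0.293 CPM) covers counting error only.

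The members, steps and gene lists were chosen with earlier results of these data known. By rule, every member called in any comparison was named with its value in every library, and in steps with no call the 2 lowest and 2 highest; of each list up to 4 called genes with the smallest adjusted p were named, and Asns, Myc, Rrn3 and Rn45s always. Rrp15 and Nob1 were added after their values were seen.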

Additional observations from a re-analysis of the deposited data

Results flagged for a closer look

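Between the hairpins, 9 genes described here differed by the test of the difference itself, and each is given as its log2 fold change in shAsns-2 relative to the library labelled shAsns-1 (edgeR's quasi-likelihood test, adjusted p under 0.05 over all genes tested). Of the members, Rrp12 differed by 0.65 and Bop1 by 0.56, both higher in shAsns-2. Of the other assembly factors, Mdn1 differed by 0.78, Dhx37 by 0.65, Pelp1 by 0.61, Pdcd11 by 0.58 and Nol6 by 0.49. Rn45s, the row of the ribosomal RNA precursor, differed by 0.55, and Asns by -1.26, lower in shAsns-2. Leaving out shAsns-2 A ended the call of each of these except Asns, and leaving out shAsns-2 B that of each except Asns and Mdn1. In DESeq2 the calls of Rrp12, Bop1, Mdn1, Pelp1, Nol6 and Dhx37 were lost, and with the GC trend removed those of Rrp12, Bop1, Pelp1, Nol6 and Dhx37. Dhx37 also lost its call in limma-voom, with total gene reads alone and without shRenilla A. The comparison has 1 library on one side, so hairpin and library cannot be told apart.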

How the results depend on the processing

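Counts of called members changed with the setting, and no called member changed direction. The share of all genes called is given for the main fit only. A gain or loss under another setting is therefore not read as a result about the members. In shAsns-2 against shRenilla, 0 members were called in the main fit, 1 (Rrp15) with no filter on low counts and 3 (Nolc1, Nob1 and Rrp15) with the replicate letter as a block, and 0 under all other settings, including without the library labelled shAsns-1. In the library labelled shAsns-1 against shRenilla, 10 were called in the main fit, 6 in DESeq2, 5 with only the groups compared, 15 with no filter, and 5 to 12 with 1 library left out; with the block 12 were called, all lower. In shAsns-2 relative to the library labelled shAsns-1, 2 were called in the main fit, 0 in DESeq2, 8 with no filter, 8 with only the groups compared, 6 with the block, 0 with the GC trend removed, and 0 to 7 with 1 library left out. The members' median was -0.088 in shAsns-2 and -0.12 with total gene reads alone; -0.27 in the library labelled shAsns-1, -0.29 with no filter and -0.25 with the block; and 0.18 between the hairpins, 0.14 with total gene reads alone and 0.16 to 0.20 with 1 library left out. The labels do not say whether the letters A and B pair the samples. The correlation of deviations between same-lettered libraries was -0.0028. It rests on a single difference within shAsns-2 and another within shRenilla, so it cannot decide this. The block is given as an alternative. In the block Asns was called lower in shAsns-2 (adjusted p = 0.0388). The cause of these changes was not tested. Log2 fold changes of the opposite sign in the library labelled shAsns-1 against shRenilla, none of them called, were, by setting, with the GC trend removed Polr1e 0.0015, Nop58 -0.091, Gar1 0.032, Nop16 0.011, and with A and B as a block Polr1d -0.028, Polr1e 0.0090. Leaving out 1 library at a time gave ranges that crossed 0 for Polr1c -0.24 to 0.086, Polr1d -0.076 to 0.14, Nop58 -0.069 to 0.15, Gar1 -0.21 to 0.13, Nop16 -0.13 to 0.077. Log2 fold changes of the opposite sign in shAsns-2 against shRenilla, none of them called, were, by setting, in DESeq2 Myc -8.8e-05, and with the GC trend removed Polr1a 0.0059, Fbl -0.0092, Bop1 -0.037, Rrn3 0.014, and with total gene reads alone Polr1c -0.015, Fbl -0.010, Bop1 -0.023, Myc -0.028, and in limma-voom Myc -0.0051, and with no filter Myc -0.0022, and with A and B as a block Myc -0.0043. Leaving out 1 library at a time gave ranges that crossed 0 for Polr1a -0.13 to 0.13, Polr1c -0.14 to 0.19, Tcof1 -0.11 to 0.031, Ncl -0.10 to 0.065, Npm1 -0.10 to 0.025, Fbl -0.056 to 0.082, Nop56 -0.039 to 0.15, Nop58 -0.21 to 0.0064, Nop14 -0.15 to 0.0089, Bop1 -0.0039 to 0.015, Nop2 -0.060 to 0.021, Noc3l -0.13 to 0.071, Rrs1 -0.11 to 0.0038, Myc -0.14 to 0.13, Rrn3 -0.045 to 0.043. Log2 fold changes of the opposite sign in shAsns-2 relative to the library labelled shAsns-1, none of them called, were, by setting, with the GC trend removed Ubtf -0.043, Nob1 -0.0025, Rrs1 -0.040, and with total gene reads alone Ubtf -0.0088, Wdr75 -0.0042, Rrs1 -0.0033, and with A and B as a block Ubtf -0.015, Wdr75 -0.022. Leaving out 1 library at a time gave ranges that crossed 0 for Ubtf -0.045 to 0.10, Nop10 -0.14 to 0.025, Wdr75 -0.038 to 0.10, Nob1 -0.027 to 0.13, Tsr1 -0.037 to 0.16, Rrp15 -0.27 to 0.062, Rrs1 -0.024 to 0.090. Limits are the single library labelled shAsns-1, whose own spread was not measured, 2 libraries per other group, and a median SE of 0.112 (log2) in shAsns-2 and 0.142 in the library labelled shAsns-1 over all genes tested.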
